A study of Mus musculus with 6 samples.

Results

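The genes described here are the numbered mouse zinc-finger protein genes, those whose symbol is Zfp followed by a number, in regulatory T cells taken out of a tumour. They were chosen by 3 conditions: a match to a protein-coding gene of that name in the GENCODE M21 annotation, the exclusion of Zfp36, and a raw count of at least 600 summed over all 6 libraries. Of 54446 genes in the count tables, 364 belong to this family by name, and 143 met the count minimum. Another 194 had a summed count from 1 to 599 and 27 had none. Zfp692 (603 counts) and Zfp429 (605 counts) lay just inside the minimum, and Zfp747 (599 counts) and Zfp516 (584 counts) just outside it. The minimum uses the sum over all libraries, so a gene that is high in 1 group of libraries can reach it through that group.

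Total RNA was sequenced from live CD45+ CD4+ cells carrying a green fluorescent Foxp3 reporter (Treg cells), sorted from subcutaneous tumours of B16F10, a mouse melanoma cell line. All 6 libraries came from mice with Foxp3Cre, a Cre recombinase expressed with Foxp3, which is the transcription factor that defines Treg cells. The 3 control libraries are titled WT Control, but their genotype is given as Foxp3CreYthdf2fl/+, so that 1 Ythdf2 allele was floxed in the controls too. The 3 libraries labelled Ythdf2 cKO (labelled cKO from here on) carried Foxp3CreYthdf2fl/fl. Cage 1 housed the mice of control replicates 1 and 2 and of cKO replicate 1, and cage 2 those of control replicate 3 and of cKO replicates 2 and 3. Whether each library is 1 animal is not stated in the labels. The p-values therefore speak only of the spread among these samples, and that spread may be technical.

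Most Zfp proteins bind DNA through tandem zinc fingers, small folds held by a zinc ion, each of which reads a few bases. A large subgroup carries a KRAB domain at the amino terminus, which recruits Trim28 (KAP1) and through it the histone methyltransferase Setdb1, and is known for silencing retroelements and holding imprints. Zfp mRNAs are often short-lived and many carry N6-methyladenosine (m6A), the mark that the Ythdf2 protein binds to speed the decay of an mRNA. Neither m6A nor mRNA half-life was measured in these libraries.

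A pair of short stretches of sequence were looked for in these transcripts. The first is the code for the linker between neighbouring fingers. The second is the pentamer GGACT, a common form of the sequence in which m6A is placed. The linker was searched in the encoded proteins as histidine, threonine, glycine, a glutamate, valine, lysine or glutamine, a lysine or arginine, then proline. It was found in 105 of 143 members (73.4%), against 3.22% of the 11398 protein-coding genes tested. For members described below, the first linker that is followed by tyrosine or phenylalanine is given 5′ to 3′ on the coding strand. Its 5 codons are in capitals, from GENCODE M21 transcripts (mm10).
Zfp715, chr7:43299131-43299151, minus strand: catACGGGTGAGAAGCCTtat
Zfp110, chr7:12849554-12849574, plus strand: cacACAGGAGAGCGGCCAtat
Zfp51, chr17:21463914-21463934, plus strand: catACTGGGGAAAAACCTtac
Zfp445, chr9:122853381-122853401, minus strand: cacACTGGAGTGAAACCTtac
Zfp120, chr2:150117915-150117935, minus strand: catACAGGAGAGAAACCTtat
Zfp523, chr17:28201037-28201057, plus strand: cacACGGGTGAGAAACCAtac
Zfp831, chr2:174644026-174644046, plus strand: cacACAGGTGAAAGGCCCttc
Counted with any residue after the proline, Zfp831 held 1 linker, Zfp523 held 4, Zfp715 held 10 and Zfp51 held 13.

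The pentamer was counted on the sense strand of the longest coding transcript. It was present in 134 of 143 members (93.7%) and in 91.7% of the protein-coding genes tested, with a median of 4 copies against 3. Per kilobase the members held fewer, with a median of 0.864 against 1.05. The coding copy nearest the stop codon is shown for members that the results below turn on, with the pentamer in capitals.
Zfp292, chr4:34805002-34805026, minus strand: aatccagataGGACTgttttaaaag
Zfp715, chr7:43301664-43301688, minus strand: ggcagcatctGGACTccgcccagag
Zfp110, chr7:12848778-12848802, plus strand: aacagcagaaGGACTctgtggagtg
Zfp462, chr4:55050281-55050305, plus strand: cctccttctgGGACTgctgctggca
Zfp704, chr3:9565241-9565265, minus strand: ttcaatcagaGGACTtcagacgtga
Zfp523, chr17:28204480-28204504, plus strand: tggtgactgaGGACTcaagcgtggc
Zfp831, chr2:174705703-174705727, plus strand: agtgagagtaGGACTtgtcaagctg
Zfp462, Zfp704 and Zfp831, with Zfp738, held 12 copies each in the whole transcript, the most among the 143. A match is a description of letters and not evidence of a methylated site.

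The members were long, and most of that length sat in 1 exon. The median transcript was 3901 bases, against 3029 for the protein-coding genes tested. The last exon took up a median of 77.5% of the transcript, against 47.3%. It held over 50% of the transcript in 109 of 143 members (76.2%), against 46.6% of the genes tested. This is the usual layout of finger arrays, which tend to be encoded in a single final exon.

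At least 1 classical finger was matched in 141 of 143 encoded proteins, with a median of 9. Zfp142 held 36 and Zfp462 held 33, the most, while Zfp703 and Zfp330 held none by this pattern. A KRAB match was found in 56 members (39.2%), against 1.9% of the protein-coding genes tested. The KRAB pattern misses some divergent domains and matches some proteins without fingers. Members with a KRAB match held a median of 12 fingers, those without held 7.

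**Figure D1:**
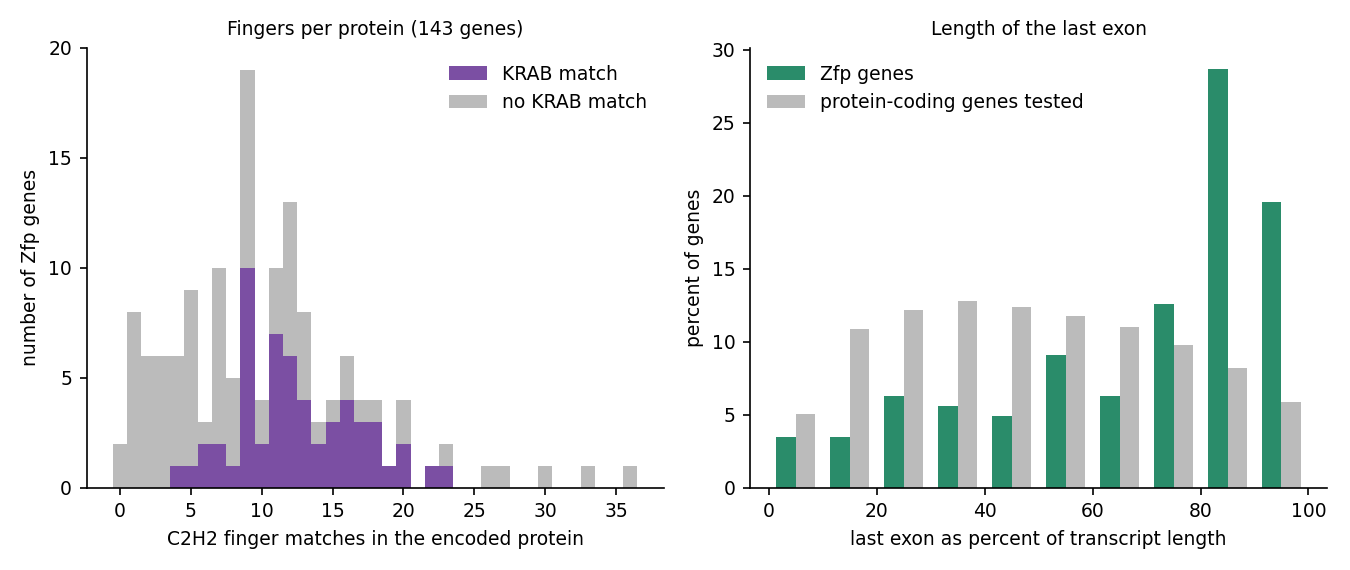
Left, the number of the 143 Zfp genes (y axis) by the number of finger matches in the encoded protein (x axis), with KRAB matches in purple and the rest in grey. Right, the percent of genes (y axis) by the share of the transcript that lies in the last exon (x axis, bins of 10 percentage points), with the Zfp genes in green piled up at the right end and the 11398 protein-coding genes tested in grey spread across the range.

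The members also shared position. Chromosome 7 held 26 of them (18.2%, against 7.5% of the genes tested) and chromosome 17 held 21 (14.7%, against 4.98%). The KRAB group made up 18 of the 21 on chromosome 17. Runs of at least 5 members with gaps of at most 200000 bases occurred 5 times. One, on chromosome 17 from 21383748 to 21588699 (mm10), held Zfp677, Zfp51, Zfp53, Zfp52 and Zfp948, and another, from 21879570 to 22377281, held Zfp995, Zfp942, Zfp943, Zfp994, Zfp944 and Zfp758.

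Such clusters arise by duplication, and reads of near-identical copies may be split or lost in counting. Of the 143 members, 53 shared no window of 50 bases with a transcript of another gene, 29 shared over 10% of their windows, and only Zfp984 shared over 50% (57.4%). Of the members described by their values below, Zfp429 (26.2%), Zfp106 (25.2%), Zfp959 (21.3%), Zfp995 (20.9%), Zfp335 (20.3%), Zfp738 (20.3%), Zfp704 (18.2%), Zfp740 (16.3%), Zfp523 (12.4%), Zfp866 (12%) and Zfp668 (10.4%) shared over 10%, and their values are less certain for it.

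The libraries held 5602053 to 13602069 gene counts. The targeted gene Ythdf2 stood at 124, 102 and 93.1 CPM (gene counts scaled to TMM-adjusted library size) in control replicates 1, 2 and 3 and at 90.1, 104 and 104 CPM in the libraries labelled cKO. These groups overlapped. The labels do not say which exons are floxed, and a count over the whole gene need not fall when a part is deleted. All directions below are for the libraries as labelled. Foxp3 (325 to 608 CPM) and Cd4 (412 to 718 CPM) were high in all 6. The share of mitochondrially encoded genes was 45.1% in control replicate 3 and 10.6% to 20.5% in the others. The 15 melanoma markers summed to 90.9 to 644 CPM in cage 1 and 2958 to 5959 CPM in cage 2, with Tyr, Oca2 and Gpr143 at 0 in some libraries.

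Levels of the members ran from 10.0 to 388 CPM as the mean over 6 libraries, with a median of 24.3 CPM. Zfp292, a large finger protein, was the most abundant, at 357, 411 and 308 CPM in the controls and 504, 373 and 377 CPM in the libraries labelled cKO. Zfp106, an RNA-binding protein, stood at 273, 237 and 253 CPM and at 176, 269 and 267 CPM. Both groups overlapped for each of these.

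Zfp91, an E3 ubiquitin ligase of the noncanonical NF-kB pathway known to support Treg homeostasis, stood at 228, 223 and 191 CPM in the controls against 235, 188 and 194 CPM. Zfp638, which helps silence unintegrated retroviral DNA, ran from 178 to 222 CPM over all libraries, and Zfp148, a factor that binds GC-rich promoters, from 142 to 199 CPM. None of these 5 abundant members differed between the genotypes past the threshold used below.

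Scaled for exon length, Zfp292 remained highest, at 38.9 CPM per kilobase. Zfp281 (25.7), Zfp207 (24.7), which helps assemble the mitotic spindle, and Zfp106 (23.6 CPM per kilobase) followed, and these 3 differed by less than their spread over libraries (coefficients of variation of 17.4%, 12.7% and 14.8%). The lowest on this scale were Zfp738 (1.17), Zfp462 (1.26) and Zfp704 (1.29 CPM per kilobase). The KRAB group had lower CPM, with a median of 18.6 CPM against 29.7 CPM for the rest.

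Variation over the 6 libraries was modest for most members. The median coefficient of variation of CPM was 19.2%. Zfp746 (PARIS, a repressor of PGC-1α) varied least, at 43.5, 45.7 and 45.0 CPM in the controls and 47.2, 48.4 and 52.7 CPM in the libraries labelled cKO (6.93%). Zfp704 (105%), Zfp462 (103%) and Zfp608 (71.9%) varied most.

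cKO replicate 1, the smallest library, stood apart. It held the highest of the 6 values for 54 members (37.8%, against 25.2% of all genes tested) and the lowest for 41 (28.7%, against 32.4%). Its mean absolute deviation from the mean of 6 libraries was 0.457 on the log2 scale over the members, against 0.185 to 0.290 in the others, and 0.73 over all genes, against 0.349 to 0.54. Zfp704, described below, departed most in it (-5.22 on the log2 scale), followed by Zfp251 (-3.60). Zfp251 stood at 16.1, 14.8 and 12.6 CPM in the controls and 0.49, 15.2 and 10.6 CPM in the libraries labelled cKO. That single low value set the lowest fold change of the members between genotypes.

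**Figure D2:**
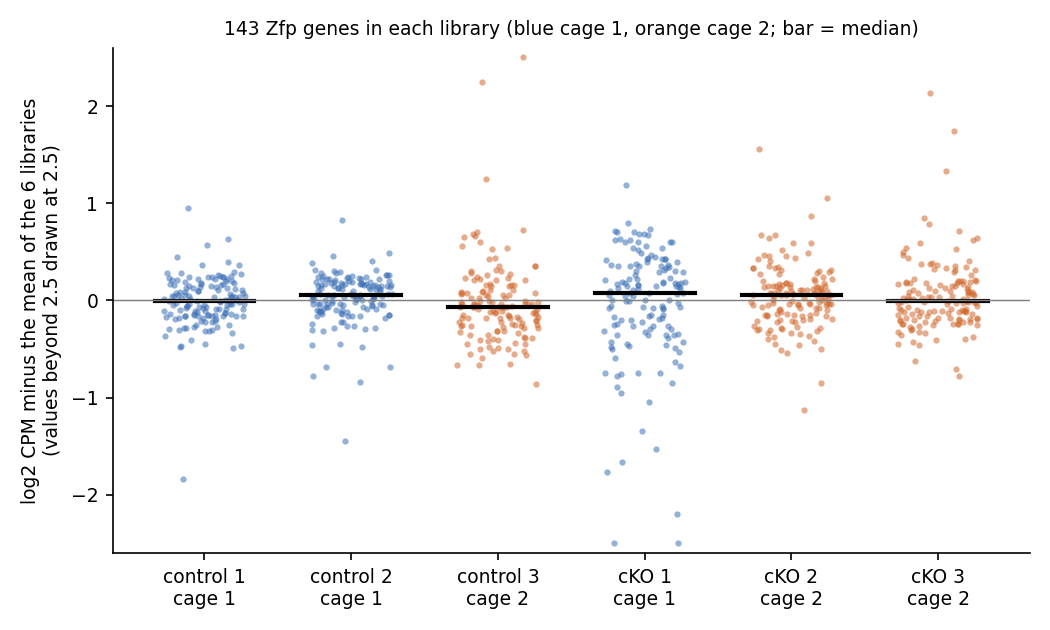
Each point is 1 of the 143 Zfp genes in 1 library, as log2 CPM minus its mean over the 6 libraries (y axis, values beyond 2.5 drawn at 2.5), with cage 1 in blue, cage 2 in orange and a bar at the median. The medians lie between -0.07 and 0.08, while the points of cKO replicate 1 spread widest (mean absolute deviation 0.457).

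As a share of all gene counts the members took 0.626%, 0.642% and 0.396% in the controls, against 0.688%, 0.617% and 0.602% in the libraries labelled cKO. The means were 0.555% ± 0.138 and 0.636% ± 0.046 (SD, n = 3 each), and the groups overlapped. The low share in control replicate 3 went with its 45.1% of mitochondrial counts. With genes of the mitochondrial genome, ribosomal RNA and haemoglobin removed from the total, the shares became 0.752%, 0.758% and 0.768% against 0.797%, 0.796% and 0.790%. The groups then no longer overlapped, at 0.759% ± 0.008 and 0.794% ± 0.004 (SD, n = 3 each). A sum over chosen members is given without a test. On the TMM scale the summed CPM overlapped again, at 5816, 5909 and 5572 against 6314, 5930 and 5790. In bulk RNA, fewer cells of a type and less RNA per cell cannot be told apart.

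The first comparison is between the libraries labelled cKO and the controls, in a design that targets Ythdf2 in Treg cells. No member passed the threshold, an adjusted p under 0.05 (edgeR quasi-likelihood test with Benjamini-Hochberg adjustment over 13172 genes), nor did any gene (0%). DESeq2 and limma-voom also called 0 of all genes, with 1 and 2 members at an unadjusted p under 0.05. In the edgeR fit an unadjusted p under 0.05 was found for 2 members (1.4%), where 1.62% of all genes tested had one, 1 higher (0.699%, against 0.835%) and 1 lower (0.699%, against 0.782%). The genotypes did not overlap for 15 members (10.5%), against 7.62% of all genes. Of these, 9 were higher in the libraries labelled cKO (6.29%, against 3.4%) and 6 lower (4.2%, against 4.22%).

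The members' median log2 fold change was 0.06, with 85 of 143 above 0 (59.4%), against a median of -0.00 and 49.3% over all genes. The median was 0.01 without cKO replicate 1. The members ranged from -0.71 to 0.80. Within cage 1 the median was 0.05 (77 of 143 above 0) and within cage 2 also 0.05 (80 of 143). Over all genes these medians were -0.08 and -0.01. The value within cage 1 rests on cKO replicate 1 alone, and that within cage 2 on control replicate 3 alone.

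**Figure D3:**
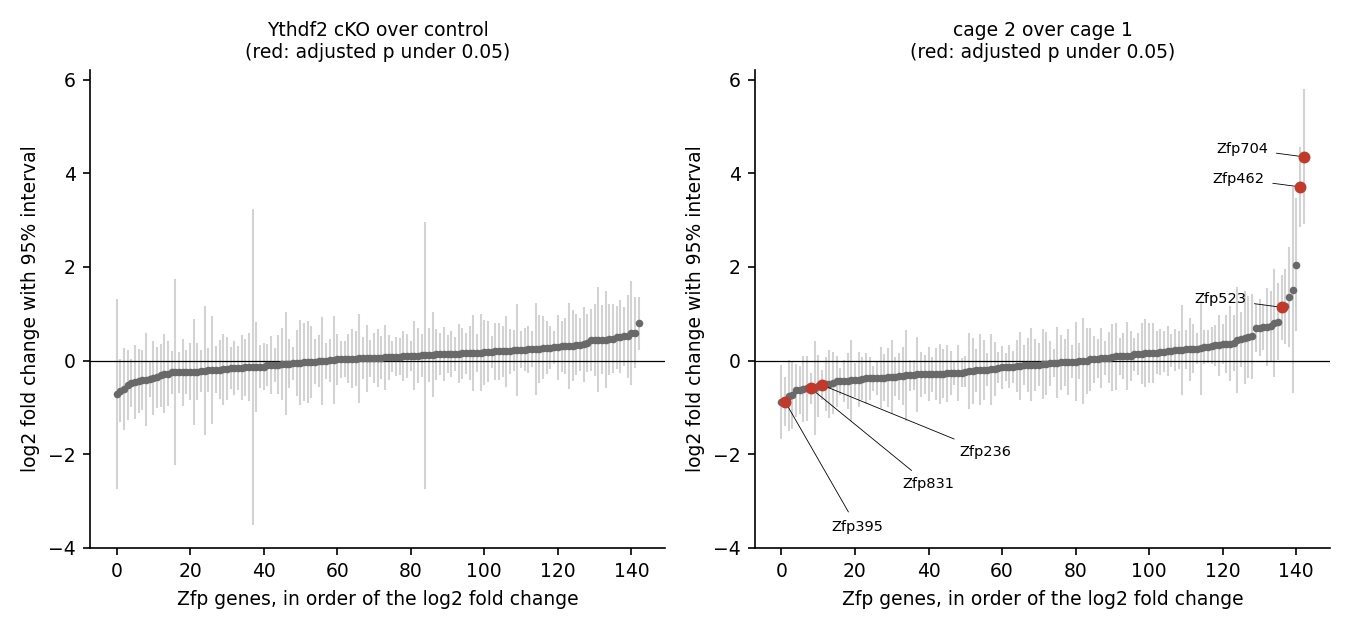
Log2 fold changes of the 143 Zfp genes (y axis) in rising order (x axis) with 95% intervals in grey, for Ythdf2 cKO over control on the left and cage 2 over cage 1 on the right, with red points at an adjusted p under 0.05. On the left no point is red and the range is -0.71 to 0.80, while on the right Zfp462, Zfp704 and Zfp523 stand at the upper end and Zfp831, Zfp395 and Zfp236 near the lower end.

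Zfp715, a KRAB member with 19 fingers (ENSMUSG00000012640, chromosome 7, 43296197 to 43313294, mm10), had the largest log2 fold change and the smallest p. Its values were 18.6, 19.8 and 14.7 CPM in the controls and 35.9, 31.4 and 25.2 CPM in the libraries labelled cKO. Every library labelled cKO lay above every control. On the log2 scale it was higher by 0.80 (standard error 0.24), with a 95% interval of 0.23 to 1.36 (edgeR unadjusted p = 0.012, Benjamini-Hochberg adjusted p = 1). Within the cages the log2 difference was 0.90 and 0.93. Its transcript holds 2 copies of GGACT.

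Zfp110, also called NRIF, which binds the p75 neurotrophin receptor, was the other member with an unadjusted p under 0.05. It stood at 45.3, 43.1 and 45.6 CPM in the controls and at 35.0, 33.3 and 33.3 CPM in the libraries labelled cKO. The groups did not overlap and the spread within each was small. Its log2 fold change was -0.40 (standard error 0.16), with a 95% interval of -0.78 to -0.02 (edgeR unadjusted p = 0.041, Benjamini-Hochberg adjusted p = 1). The log2 difference was -0.33 within cage 1 and -0.45 within cage 2.

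The next members by p on the higher side were Zfp51, Zfp445, Zfp770 and Zfp959, all with unadjusted p of 0.097 or more. Zfp445, which with Zfp57 maintains imprints, stood at 85.1, 89.4 and 72.7 CPM in the controls and at 90.6, 105 and 104 CPM in the libraries labelled cKO. Its lowest library labelled cKO lay just above its highest control, and the log2 difference was 0.05 within cage 1 and 0.52 within cage 2. Zfp51, of the first chromosome 17 run above, stood at 17, 16.6 and 13.1 CPM against 28, 18.1 and 20.8 CPM, without overlap. Zfp770 and Zfp959 did not overlap either, at log2 fold changes of 0.59 and 0.49.

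On the lower side the next were Zfp866, Zfp120, Zfp995 and Zfp386, all with a KRAB match. Zfp120 stood at 26.1, 27.5 and 24.9 CPM in the controls and at 16.1, 21.1 and 19.1 CPM in the libraries labelled cKO (log2 fold change -0.48, standard error 0.22). Zfp866 stood at 16.8, 15.4 and 24.0 CPM against 11.3, 11.7 and 13.0 CPM (log2 fold change -0.64, standard error 0.28, and -0.40 without control replicate 3). The groups did not overlap in either. Zfp995 and Zfp386 did overlap.

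The other members without overlap between genotypes had smaller fold changes or wider spread. Zfp871, a KRAB member with 15 fingers, stood at 64.8, 61.1 and 56.2 CPM in the controls and at 73.7, 69.4 and 65.0 CPM in the libraries labelled cKO (log2 fold change 0.19). Zfp668 ran from 15.1 to 15.4 CPM in the libraries labelled cKO, above all controls (0.37). On the lower side Zfp740 stood at 72, 74.6 and 69.4 CPM against 46.7, 68.3 and 66.2 CPM (-0.25), with most of the distance in cKO replicate 1. Zfp958 stood at 11.5, 13.1 and 12.8 CPM against 9.17, 10.4 and 9.55 CPM (-0.36). Zfp746 and Zfp429 were higher without overlap as well, and Zfp639 lower. None of these had an unadjusted p under 0.05 (edgeR).

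**Figure D4:**
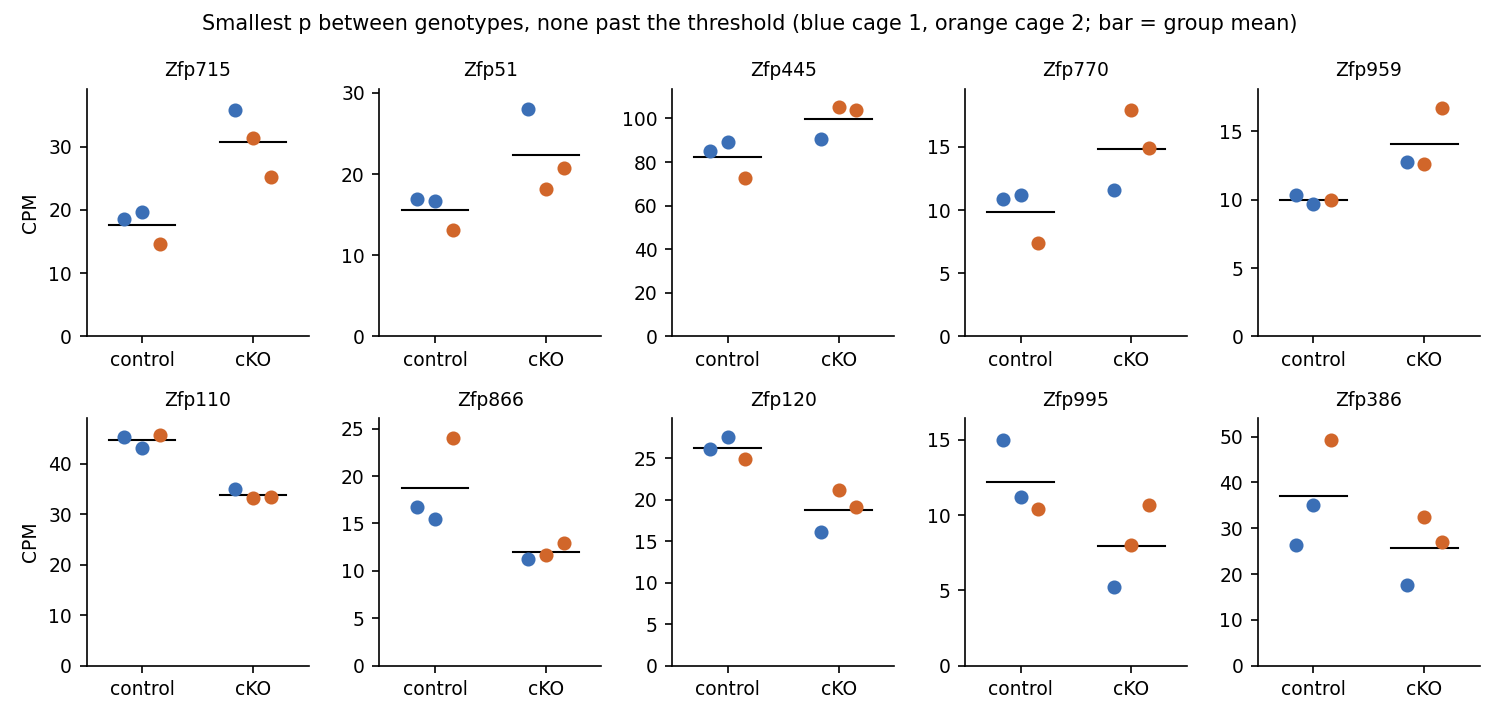
CPM (y axis, from 0) of the 5 Zfp genes with the smallest p on each side between control and Ythdf2 cKO (x axis), 1 point a library, cage 1 in blue, cage 2 in orange, bar at the group mean. Zfp715 runs from 14.7 to 19.8 CPM in the controls and from 25.2 to 35.9 CPM in the libraries labelled cKO, and none of the 10 genes passed the adjusted threshold.

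Grouped by known role, no list had a called member between genotypes, or one with an unadjusted p under 0.05 (edgeR). Of 12 listed genes of chromatin complexes, 11 had a fold change above 0, against 49.3% of all genes tested. This list was chosen with earlier results of these data known, and holds genes under the count minimum. The count of 11 therefore says nothing of whether the list differs from other genes. Zfp687, of the ZMYND8 complex, had the smallest p among its members here, at 30.3, 31.1 and 29.3 CPM against 51.8, 32.4 and 31.0 CPM, where only replicate 1 of the libraries labelled cKO stood well above the controls. Zfp644, a partner of the G9a and GLP histone methyltransferases, ran from 93.5 to 115 CPM over all libraries.

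Of 9 lymphocyte-related members, 5 were above 0 and their median was 0.04 (log2). Zfp143, an activator found at chromatin loops, stood at 33.5, 32.9 and 30.0 CPM against 23.1, 30.5 and 27.7 CPM. Zfp335, needed for T cell maturation, stood at 48.8, 48.3 and 41.5 CPM against 62.9, 33.5 and 46.6 CPM. Both overlapped between the genotypes.

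Of 9 genes of RNA and ribosome roles, 5 were above 0. Zfp598, the ligase that marks collided ribosomes, stood at 42.5, 26.1 and 35.5 CPM against 42.7, 40.2 and 30.0 CPM. Zfp622, a factor of the large ribosomal subunit, stood at 68.3, 66.9 and 65.2 CPM against 90.2, 65.8 and 50.2 CPM. The spread among the libraries labelled cKO exceeded the difference between groups in both.

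Of 4 measured genes of retroelement and imprint silencing, 3 were above 0. Besides Zfp445, Zfp809, which silences retroviruses through their primer binding site, stood at 31.2, 32.5 and 31.1 CPM against 28.3, 36.7 and 37.1 CPM. Zfp568, which represses a placental Igf2 transcript, stood at 14.7, 16.6 and 24.1 CPM against 9.01, 15 and 16.2 CPM. The libraries of the genotypes overlapped in both.

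The members with a KRAB match had a median log2 fold change of 0.13 (36 of 56 above 0), those without 0.05 (49 of 87). On chromosome 17 the median was 0.25, with 16 of 21 above 0, 0 called and 0 at an unadjusted p under 0.05 (edgeR). In the first run there, Zfp52 stood at 54.9, 62.4 and 43.2 CPM against 72.9, 59.8 and 52.2 CPM and Zfp53 at 49.6, 36.4 and 33.1 CPM against 55, 52.9 and 36.3 CPM. In the second, Zfp943 stood at 18.8, 17.7 and 19.1 CPM against 22.6, 21.3 and 17 CPM and Zfp758 at 28.8, 24.8 and 21.3 CPM against 43.2, 20.9 and 25.1 CPM. In all 4 the highest value was in cKO replicate 1, the library that stood apart above, and the genotypes overlapped. By copies of GGACT the median was 0.00 for 48 members with 0 to 2, 0.06 for 43 with 3 to 4 and 0.10 for 52 with 5 or more. By mean CPM it was 0.08 for the upper 71 members and -0.01 for the lower 72. Copies, level and transcript length were not separated, and these medians carry no test.

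The genes through which KRAB proteins repress were measured as well. Of 24 tested, 0 were called between genotypes, 0 had an unadjusted p under 0.05 (edgeR) and 11 had a fold change above 0. Trim28 stood at 130, 103 and 123 CPM in the controls and 105, 110 and 126 CPM in the libraries labelled cKO, and Setdb1 at 40.6, 36.4 and 36.6 CPM against 34.6, 37.0 and 43.4 CPM. Dnmt1, the maintenance DNA methyltransferase, had the smallest p (unadjusted, edgeR, 0.098) at 356, 308 and 258 CPM against 240, 268 and 237 CPM. No gene was called, and 0 had an unadjusted p under 0.05 (edgeR), among 36 of the Zbtb family, 8 of the Zkscan family and 8 of the Zscan family, the other finger proteins named by pattern.

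The second comparison is between the cages, each of which held both genotypes, with genotype kept as a term. Between cages 6 members were called (4.2%), against 11.5% of all genes tested, 3 higher in cage 2 (2.1%, against 7.83%) and 3 lower (2.1%, against 3.68%). The 3 called higher reached the count minimum only through cage 2. At their cage 1 level in all 6 libraries 9 members would fall under it, these 3 among them, and at their cage 2 level another 9, of which 0 were called. The shares above therefore say nothing of whether the members differ from other genes, and at a minimum of 1200 no member was called higher (edgeR). The cages did not overlap for 26 members (18.2%), against 27.3% of all genes. Of these, 11 were higher (7.69%, against 15.1%) and 15 lower (10.5%, against 12.2%). The median log2 fold change of the members was -0.08, with 59 of 143 above 0 (-0.05 without cKO replicate 3), and that of all genes 0.01. Cage, mitochondrial share and the summed markers of melanoma cells, fibroblasts and macrophages moved together here, and their part in these results was not tested.

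Zfp462, which acts with G9a and GLP in heterochromatin (ENSMUSG00000060206, chromosome 4, 54945048 to 55083563, mm10), rose with cage 2. It stood at 1.86, 2.5 and 34.9 CPM in the controls and at 1.97, 15.1 and 24.5 CPM in the libraries labelled cKO. All 3 libraries of cage 1 were at or below 2.5 CPM and all 3 of cage 2 at or above 15.1 CPM. The means were 2.11 ± 0.35 and 24.8 ± 9.91 CPM (SD, n = 3 each). The fitted log2 fold change was 3.71 (standard error 0.38; edgeR, Benjamini-Hochberg adjusted p = 7.43e-04). It was 3.89 within the controls and 3.16 within the libraries labelled cKO.

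Zfp704 (ENSMUSG00000040209, chromosome 3, 9427020 to 9610085, mm10) was the other member with a cage difference of this size. It stood at 5.39, 4.06 and 52.7 CPM in the controls and at 0, 22.3 and 33.3 CPM in the libraries labelled cKO, with no read in replicate 1 of the latter. It is the only member without a count in some library. The fitted log2 fold change was 4.35 (standard error 0.64; edgeR, Benjamini-Hochberg adjusted p = 0.0036). With the 0 in cage 1 this size is uncertain: it was 3.47 without cKO replicate 1, which holds the 0, and 11.2 without control replicate 3. Zfp462 ran from 3.34 to 3.97 with 1 library left out.

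Within cage 2 both genes were highest in control replicate 3, then in cKO replicate 3, then in replicate 2. In that order the summed melanoma markers stood at 5959, 4076 and 2958 CPM, those of macrophages and monocytes at 585, 299 and 157 CPM, and the mitochondrial share at 45.1%, 20.5% and 19.4%. The fibroblast markers stood at 693, 705 and 161 CPM and the erythroid markers at 28.7, 21.1 and 154 CPM. Other lists ran in reverse. The T cell and Treg markers stood at 4946, 5713 and 6939 CPM, those of B and plasma cells at 103, 116 and 140 CPM. Those of dendritic cells stood at 51.3, 81.6 and 91.9 CPM. An order of 3 libraries cannot tell these lists apart. Of the 15 melanoma markers, 13 were above cage 1 in every library of cage 2. The fibroblast markers moved too (17.2 to 63.3 CPM in cage 1, 161 to 705 CPM in cage 2), as did those of macrophages and monocytes (12 to 108 CPM in cage 1). For fibroblasts 8 of 10 markers were above cage 1 in every library of cage 2, for macrophages and monocytes 3 of 15. In some library 6 and 9 of them were at 0. The markers of CD8 T and NK cells were lower in cage 2 (245 to 303 CPM, against 344 to 601 CPM). The part of all these lists in the change of Zfp462 and Zfp704 was not tested.

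Zfp523, a close relative of Zfp143 (ENSMUSG00000024220, chromosome 17, 28177129 to 28205886, mm10), was the third member higher in cage 2. It stood at 9.19, 7.92 and 18.6 CPM in the controls and at 8.84, 16 and 23.4 CPM in the libraries labelled cKO. The cages did not overlap. Its log2 fold change was 1.14 (standard error 0.31; edgeR, Benjamini-Hochberg adjusted p = 0.045), and 1.11 within each genotype. The call was lost without any one of control replicates 1, 2 and 3 or cKO replicates 1 and 3 (edgeR adjusted p from 0.0857 to 0.151).

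The 3 members lower in cage 2 changed less than those higher. Zfp831 (ENSMUSG00000050600, chromosome 2, 174643534 to 174710832, mm10) stood at 173, 191 and 109 CPM in the controls and at 206, 167 and 135 CPM in the libraries labelled cKO. The highest library of cage 2, at 167 CPM, lay below the lowest of cage 1. Its log2 fold change was -0.59 (standard error 0.15; edgeR, Benjamini-Hochberg adjusted p = 0.033).

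Zfp395 (chromosome 14, 65358389 to 65398930, mm10) stood at 38.5, 34.2 and 16.3 CPM against 31.8, 21.2 and 20.7 CPM, so that the cages did not overlap. Its log2 fold change was -0.88 (standard error 0.23, edgeR adjusted p = 0.042), and -0.58 without control replicate 3. Zfp236, with 30 fingers, stood at 108, 120 and 86.0 CPM against 153, 107 and 89.6 CPM. Its log2 fold change was -0.52 (standard error 0.14, edgeR adjusted p = 0.046), and the cages again did not overlap.

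None of these 3 calls held when control replicate 2 or 3, or cKO replicate 1 or 3, was left out, and only that of Zfp831 held without control replicate 1 or cKO replicate 2. The 15 T cell and Treg markers were lower in cage 2 in the same libraries, at 4946 to 6939 CPM in sum against 8440 to 9220 CPM, and 10 of the 15 were called. Their part in the lower values of Zfp831, Zfp395 and Zfp236 was not tested.

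**Figure D5:**
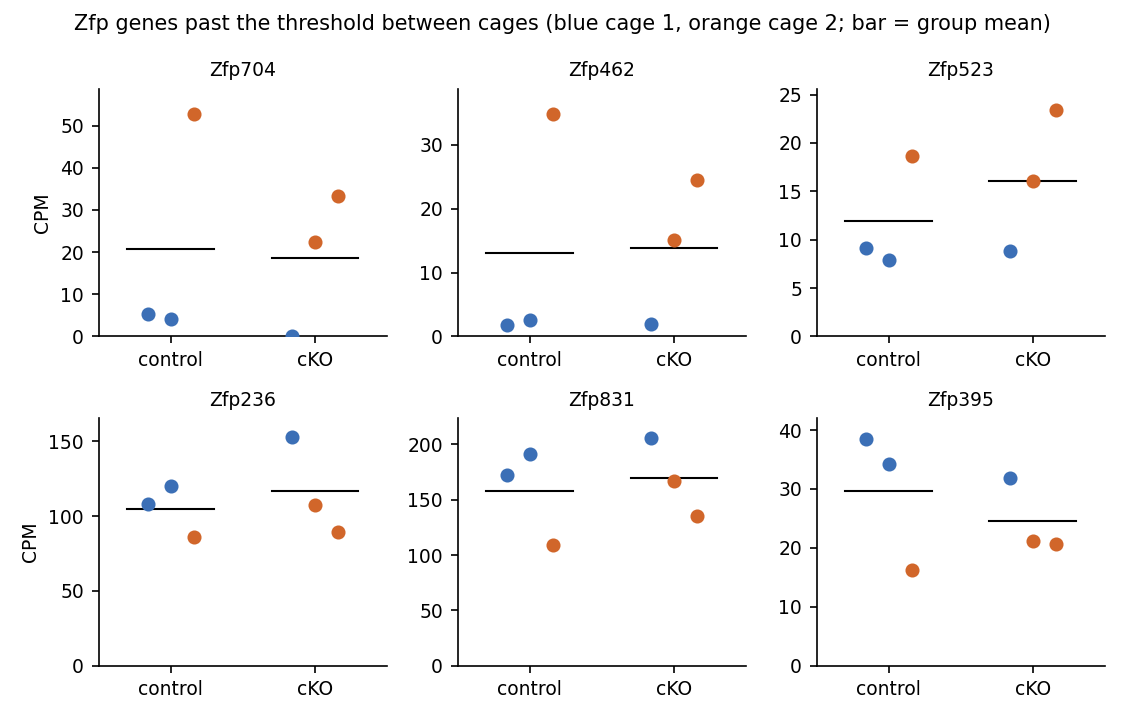
CPM (y axis, from 0) of the 6 Zfp genes past the adjusted threshold between cages, by genotype (x axis), 1 point a library, cage 1 in blue, cage 2 in orange, bar at the genotype mean. In the upper row the orange points lie above the blue ones (Zfp462 at 15.1 to 34.9 CPM against 1.86 to 2.5 CPM), in the lower row below them.

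Members just short of the threshold fell on both sides. Higher in cage 2 were Zfp386 (log2 fold change 0.72, edgeR adjusted p = 0.065), Zfp777 (1.16, adjusted p = 0.067) and Zfp608 (2.05, adjusted p = 0.070), a repressor of the Rag genes in thymocytes. Zfp777 moved to 0.45 without cKO replicate 1 (edgeR adjusted p = 0.387) and to 1.98 without control replicate 3 (0.0134, past the threshold). Zfp608 stood at 12.4, 5.55 and 21.8 CPM in the controls and at 1.80, 8.11 and 23.0 CPM in the libraries labelled cKO, so that the cages overlapped. Lower were Zfp407 (-0.44, adjusted p = 0.057) and Zfp292 (-0.37, adjusted p = 0.077), the most abundant member.

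Among members that were not called, the cages were apart for several with a known role. Zfp318, which controls IgD in B cells, stood at 25.5, 23.6 and 36.8 CPM in the controls and at 20.3, 29.9 and 41.6 CPM in the libraries labelled cKO (log2 fold change 0.70, edgeR adjusted p = 0.081). The 3 libraries of cage 2 were its 3 highest. Zfp91, the ubiquitin ligase above, lay between 188 and 194 CPM in cage 2 and between 223 and 235 CPM in cage 1 (-0.27, edgeR adjusted p = 0.17). Zfp335 was lower in cage 2 without overlap too (-0.44, edgeR adjusted p = 0.19).

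All 6 called members lacked a KRAB match, as did 87 of all 143 members (60.8%). Of the 6, 3 reached the count minimum only through cage 2. The 56 members with a KRAB match had a median log2 fold change of -0.09 between cages, the 87 without -0.05. Chromosome 17 stood at -0.19, with 6 of 21 above 0. Whether the KRAB and other members differ was not tested.

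In the list of chromatin complexes 4 of 12 genes were called higher in cage 2, against 7.83% of all genes tested. The list was chosen with earlier results of these data known, and Zfp462 reached the count minimum only through cage 2. These shares therefore say nothing of whether the list differs from other genes. Besides Zfp462 the called genes were Zfp532, of the ZMYND8 complex, Zfp618 and Zfp516, which lie under the count minimum. Zfp532 stood at 2.56, 1.62 and 22.2 CPM in the controls and at 0, 15.2 and 17 CPM in the libraries labelled cKO. That is the pattern of Zfp462 and Zfp704, with all of cage 2 above all of cage 1. The role lists of lymphocytes, of RNA and ribosomes and of retroelement silencing held 0 called genes between cages (edgeR). Of their 9, 9 and 4 genes tested, 3, 2 and 1 had an unadjusted p under 0.05 (edgeR), against 26.5% of all genes tested.

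Of the 24 KRAB repression partners 0 were called between cages and 3 had an unadjusted p under 0.05 (edgeR), against 26.5% of all genes tested. Cbx5, which encodes the heterochromatin protein HP1α, came nearest, at 150, 129 and 173 CPM in the controls and 85.3, 144 and 142 CPM in the libraries labelled cKO (log2 fold change 0.53, adjusted p = 0.054). Of 36 Zbtb genes, Zbtb41 was called higher in cage 2 and Zbtb1 and Zbtb25 lower, against 7.83% and 3.68% of all genes tested. Among the 135 family genes that were tested but lay under the count minimum, 10 were called higher (7.41%, against 7.83% of all genes tested) and 0 lower (against 3.68%). At an unadjusted p under 0.05 (edgeR) 17 were higher and 4 lower, against 15.1% and 11.5% of all genes tested.

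Whether the genotype difference itself differed between the cages was tested with an interaction term. No member passed (edgeR, Benjamini-Hochberg adjustment), and 6 of all genes did (0.0456%). An unadjusted p under 0.05 was found for 16 members (11.2%), against 14.3% of all genes tested. Zfp251 had the smallest p among the members, with a log2 genotype difference of -4.49 within cage 1 and 0.01 within cage 2 (edgeR adjusted p = 0.123). Cage 1 holds a single library labelled cKO, replicate 1, so these values rest on it.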

How the data were processed

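Total RNA of sorted tumour Treg cells was made into 6 stranded libraries, per the labels' protocols. For each of them the authors deposited the raw count of every gene, without normalization. Trimmomatic 0.39, HISAT2 2.1.0, HTSeq, DESeq2 and the mm10 build are named in the submitters' processing notes. Neither the strand setting of the counting nor its annotation release is given in the sources used here, and reads of overlapping or antisense genes could be mixed. Genotype, replicate number and cage came from the labels. The members, lists and named-gene rule were chosen with earlier results of these data known.

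Rows that name no gene held 39.0% to 47.2% of all records and were left out. Of 54446 genes, 54409 matched GENCODE M21 by identifier. The quasi-likelihood test of edgeR 4.0.16 (R 4.3.3) was run on all 6 libraries in 1 fit, with TMM scaling, after filterByExpr (at least 10 counts in enough libraries and 15 in total). Terms were genotype alone, or cage with genotype. Benjamini-Hochberg adjustment covered all 13172 genes (threshold 0.05). Log2 CPM deviations used a prior count of 2. Named genes were the 5 most abundant members, the 5 with the smallest p on each side of each comparison, those nearest the count minimum, up to 4 of each list by p, those with the most or fewest fingers, and Ythdf2, Foxp3 and Cd4. Zfp251, Zfp608, Zfp746, Zfp738, the members compared per length, those named for groups that do not overlap, those of the chromosome 17 runs and the other members of lists were added after their values were seen. Structure came from the longest coding transcript of each gene in GENCODE M21.

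Alternatives were DESeq2 1.42.0, limma-voom (limma 3.58.1), other scaling factors and filters, cage as a term, the replicate number as a block, other count minimums and each library left out. On simulated counts with 200 changed genes, 2-fold, 4-fold and 8-fold changes were recovered at 24.5%, 69% and 86% between genotypes, with 2, 5 and 13 false calls among 12784, 12773 and 12736 genes. Between cages 23.5%, 69.5% and 84% were recovered. The changed genes were drawn from all genes tested. The simulated spread was estimated with cage as a term, and no cage difference was put in. The genotype test had no cage term, so the genotype recoveries do not describe that test in these libraries. The smallest library held 5602053 gene counts, and its low counts are the least precise.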

Additional observations from a re-analysis of the deposited data

How the results depend on the processing

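Between genotypes no member was called under any alternative run. Over all genes 0 were called except with no low-count filter (26 higher, 7 lower). Under scaling by total counts alone the median of all genes moved to 0.14 between genotypes and -0.32 between cages, and that of the members to 0.20 and -0.41. With cage as a term 6 members were higher and 6 lower at an unadjusted p under 0.05 (edgeR, 1345 of all genes), and 0 were called. Same-numbered samples deviated with r of 0.41, -0.24 and 0.55. Control replicates 1 and 3 correlated best with their own number and control replicate 2 with cKO replicate 1. Only the samples numbered 2 came from different cages, so these values cannot show whether the numbers pair the samples. With the replicate block 0 genes were called, 224 had an unadjusted p under 0.05 and the members' median was 0.05.

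Between cages, genes called higher and lower numbered 1550 and 799 with DESeq2 and 646 and 732 with total counts, against 1031 and 485; 873 were lower with no filter and 146 with cage as the only term. Members called numbered 8 higher and 5 lower with DESeq2, 5 lower with total counts, 5 higher with no filter, 1 lower with cage as the only term, 6 higher at a count minimum of 300 and 0 at 1200, which leaves out Zfp462, Zfp704 and Zfp523. With 1 library left out, 595 to 919 genes were higher and 65 to 376 lower, and 2 to 5 members higher and 0 to 1 lower. Where this left 1 library of a genotype in a cage, it was assumed to vary like the rest. Zfp462 and Zfp704 were called under every alternative that kept them. Zfp831 lost its call with cage as the only term, as did Zfp236, and Zfp236 also with RLE factors and with the mean CPM filter. Zfp523 lost it with limma-voom and with total counts, and Zfp395 with limma-voom. Without mitochondrial, ribosomal RNA and haemoglobin genes in the total, the members' shares were 0.759% and 0.794%; at a minimum of 1200 the share in the libraries labelled cKO was 0.543%. The causes were not tested.

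Values near 0 changed sign. Between genotypes Zfp148 (-0.01 as reported) was at 0.0049 with DESeq2, 0.0062 under RLE factors, 0.10 under total counts, 0.0087 under upper quartile factors, 0.0044 under the mean CPM filter, 0.091 when cage was a term and 0.0046 under the replicate block, and ran from -0.10 to 0.10 with 1 library left out. Zfp106 was at 0.037 under total counts and ran from -0.20 to 0.069 with 1 library left out. Zfp91 was at 0.067 under total counts and 0.028 when cage was a term. Between cages Zfp106 was at -0.040 under total counts and ran from -0.019 to 0.62 with 1 library left out, and Zfp638 ran from -0.19 to 0.10. Most 2-fold changes were not recovered in the simulation, which held no cage difference.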
